A study of Homo sapiens with 11 samples.

Results

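The MYC and MYB proto-oncogenes with their closest relatives and partners were followed across 9 treatment groups of T47D, an established estrogen-responsive cell line from a human breast cancer. The members were the 9 genes MYC, MYCN, MYCL, MAX, MXD1, MXI1, MYB, MYBL1 and MYBL2, taken as every probe set annotated to exactly 1 of these symbols on the Affymetrix HG-U133 Plus 2 array. They were 9 of the 19775 genes on the array and comprised 28 of the 54613 probe sets tested: 10 for MYCN, 5 for MAX, 3 each for MXD1 and MYBL1, 2 each for MYCL and MYB, and 1 each for MYC, MXI1 and MYBL2. The group was selected on the differences of MYC, MYB and MYBL1 between hormone and control arrays, known from an earlier look at these data. Those differences are therefore given as a description with no test, and tests are given only for the other comparisons.

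Before treatment all cells spent 4 h in serum that charcoal had cleared of steroids (10% of the medium), and every treatment then ran for 3 h in the same medium. The groups were an untreated control (2 arrays), E2-BSA at 1 µM (2 arrays) and, with 1 array each, estradiol at 1 µM, its vehicle ethanol at 0.1%, the carrier BSA at 1 µM, ICI at 10 µM, G15 at 10 µM, and E2-BSA combined with either antagonist at these concentrations. E2-BSA is estradiol coupled to bovine serum albumin, which is used as a form of the hormone that does not cross the cell membrane. The series' design text speaks of specific antagonists. G15 blocks GPER1, an estrogen receptor of the G protein-coupled kind. The other agent is named only as ICI. Whether the paired arrays of control and E2-BSA stem from separate cultures is not stated by the labels. The spread behind the p-values may therefore be technical, and they cannot be read as measuring variation between cultures.

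MYC is a helix-loop-helix leucine zipper transcription factor that binds DNA as a dimer with MAX and drives growth and cell cycle entry, and its gene is a known early target of estrogen in breast cancer cells. MXD1 and MXI1 also dimerize with MAX and oppose MYC at the same sites. MYB, MYBL1 and MYBL2 share the MYB DNA-binding repeats. MYB is best known from blood progenitors but is also expressed in estrogen receptor-positive breast cancer, and MYBL2 works with the MuvB complex on genes of mitosis.

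The 11 arrays fell into a smaller set of 3 (control 1, E2-BSA 1 and estradiol) and a larger set of 8 by clustering of the array-wide correlations. Arrays of the smaller set correlated at 0.824 to 0.864 with each other, those of the larger set at 0.160 to 0.466, and arrays of different sets at -0.584 to -0.330. What separates the sets is not given in the sources used here. Differences below were therefore taken within a set, or from a fit with the set as a block. Exceptions are named as differences between sets or as fits without the block. The deposited values were read as log2 and had been centred per probe set, so a value gives a position relative to a shared baseline and not a level. No gene can be called more abundant than another, and the label of the cell line could not be checked against marker levels. A difference in a bulk sample does not tell fewer expressing cells from less RNA per cell.

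MYC, represented by probe set 202431_s_at, had the widest range of the members. In the smaller set its centred log2 value was -0.67 on control 1, 1.88 on E2-BSA 1 and 1.71 on estradiol. In the larger set it was -0.93 on control 2, -1.01 on BSA, -0.47 on ethanol, -1.24 on G15 and -2.80 on ICI, and with hormone it was 0.77 on E2-BSA 2, 0.47 on E2-BSA with G15 and -0.93 on E2-BSA with ICI. The hormone arrays were thus the highest in each set except for E2-BSA with ICI, which lay beside the untreated control. Its spread over the 11 arrays, after each set's mean was removed, had an SD of 1.12, the rank 2 of all probe sets.

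MYB encodes the founding member of its family, and probe set 204798_at behaved as follows. In the smaller set its value was -1.92 on control 1, 0.19 on E2-BSA 1 and 0.36 on estradiol. In the larger set it was -0.07 on control 2, -0.01 on BSA, 0.01 on ethanol, 0.11 on G15 and -0.22 on ICI, against 1.16 on E2-BSA 2, 0.99 on E2-BSA with G15 and 0.49 on E2-BSA with ICI. All 3 E2-BSA arrays of the larger set lay above all 5 others, and the 5 others spanned a narrow range. Control 1 minus control 2 was -1.85, so the array sets also differed in MYB without hormone.

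MYBL1 (A-MYB), which is best known from male germ cells, is represented here by probe set 213906_at. Its value was -0.68 on control 1, 1.07 on E2-BSA 1 and 1.03 on estradiol in the smaller set. In the larger set it was -0.18 on control 2, -0.29 on BSA, 0.06 on ethanol, -0.45 on G15 and -0.46 on ICI, against 0.66 on E2-BSA 2, 0.59 on E2-BSA with G15 and 0.18 on E2-BSA with ICI. As for MYB, the 3 E2-BSA arrays of the larger set lay above the 5 others. Of the 28 member probe sets, 4 had this separation (both of MYB, 213906_at of MYBL1 and 234815_at of MYCN), beside 3.16% of all probe sets. The group was chosen on the hormone differences of MYB and MYBL1, so nothing is read from this share.

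**Figure D1:**
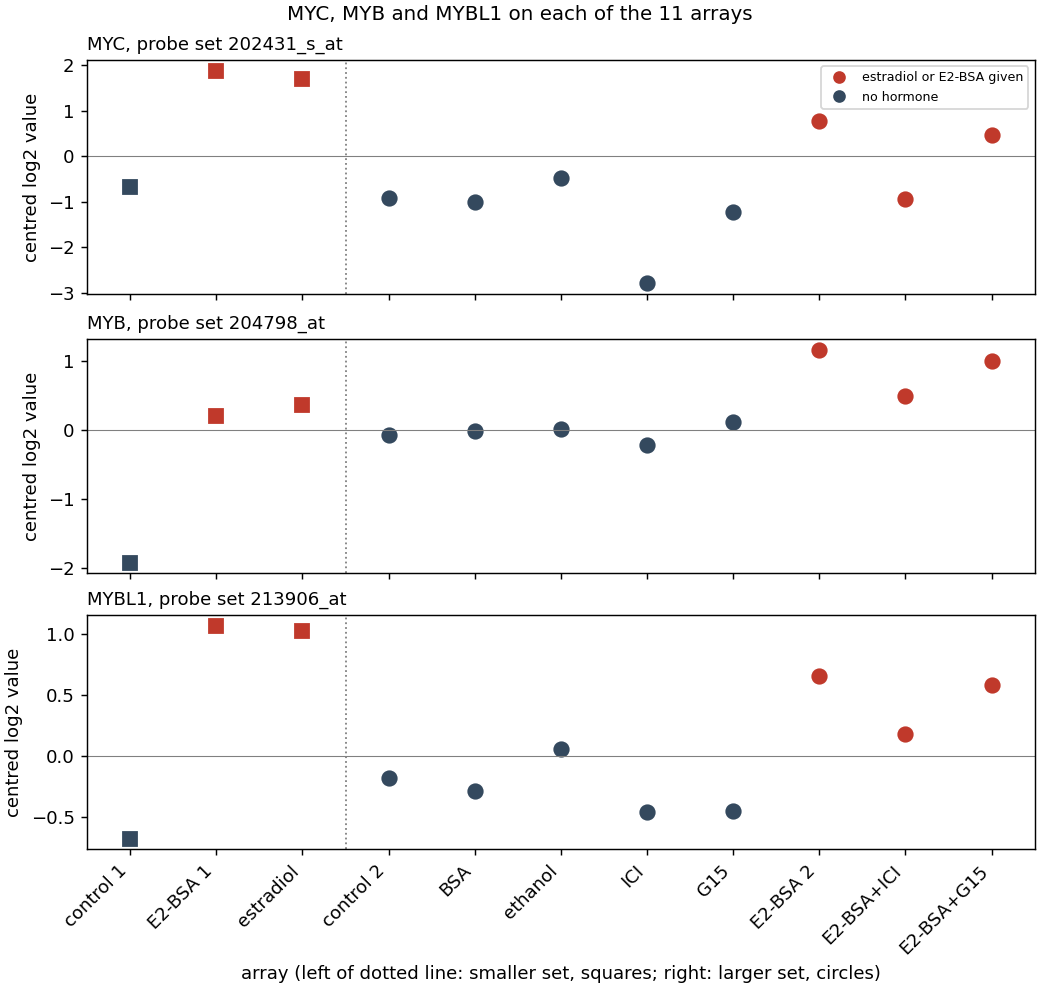
Centred log2 values of MYC, MYB and MYBL1 (1 probe set each, vertical axes) on the 11 arrays (horizontal axis), 1 point per array, with squares for the smaller and circles for the larger array set and red for arrays given estradiol or E2-BSA. MYC lies at -2.80 on ICI and at -0.93 on both control 2 and E2-BSA with ICI, while MYB and MYBL1 on E2-BSA with ICI (0.49 and 0.18) lie above all arrays of the larger set without hormone.

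The E2-BSA difference could be read in 4 matched pairs that share no array. For MYC it was 2.55 (E2-BSA 1 minus control 1), 1.69 (E2-BSA 2 minus control 2), 1.87 (E2-BSA with ICI minus ICI) and 1.71 (E2-BSA with G15 minus G15) on the log2 scale, or 5.85-fold, 3.23-fold, 3.65-fold and 3.26-fold. Ranked from the highest difference among 54613 probe sets, MYC was at rank 3, 4, 1 and 6 in these pairs. In the deposited values it was thus among the 6 highest in all 4 pairs, including the pair given ICI.

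For MYB 204798_at the 4 differences were 2.12, 1.23, 0.70 and 0.88 in the same order of pairs, at ranks 8, 25, 288 and 133. For MYBL1 213906_at they were 1.75, 0.84, 0.64 and 1.04, at ranks 15, 77, 472 and 62. Both were positive in every pair, and both were largest in the smaller array set, an order that turned after quantile normalization. In both, the pair given ICI had the smallest of the 4 differences in the deposited values, whereas for MYC it had the second largest. After quantile normalization the order turned for MYC, and its pair given ICI had the smallest difference.

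Free estradiol, on an array of the smaller set, gave differences against control 1 of 2.38 for MYC, 2.28 for MYB and 1.71 for MYBL1, at ranks 4, 5 and 15. E2-BSA 1 shares that control. Estradiol set directly against E2-BSA, at the same dose and time, did not pass in limma for any of the 28 member probe sets, and 0% of all probe sets were called. An unadjusted p under 0.05 was found for 1 of the 28 and for 8.5% of all probe sets. In the blocked fit the difference of estradiol minus E2-BSA was 0.04 for MYC (95% interval -0.45 to 0.53), 0.39 for MYB (-0.11 to 0.89) and 0.19 for MYBL1 (-0.32 to 0.69), with limma adjusted p of 0.988, 0.707 and 0.912. These intervals leave room for differences of either sign. Both hormone differences entered the choice of MYC, MYB and MYBL1, so their likeness in this comparison is not independent of that choice. Within the smaller set, estradiol minus E2-BSA 1 was -0.17 for MYC, 0.17 for MYB and -0.04 for MYBL1, so the sign for MYC and MYBL1 depended on whether the larger set entered. The vehicle array lies in the other set than estradiol, so estradiol could not be set against its vehicle within a set. The probe set with the unadjusted p under 0.05 was 234298_at of MYCN, at -0.54 ± 0.16 (SE, limma adjusted p = 0.406), which no other MYCN probe set shared at that threshold.

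In the blocked fit over all arrays E2-BSA minus control was 2.12 ± 0.17 (SE) for MYC, 1.67 ± 0.17 for MYB and 1.29 ± 0.18 for MYBL1. Estradiol minus control was 2.16 ± 0.23, 2.06 ± 0.23 and 1.48 ± 0.23, and E2-BSA minus BSA was 1.99 ± 0.23, 1.39 ± 0.23 and 1.18 ± 0.23. Averaged over the 3 backgrounds of no antagonist, ICI and G15, the E2-BSA difference was 1.95 ± 0.14, 1.23 ± 0.20 and 1.07 ± 0.16. These values describe the differences for which the genes were selected, and no test of them is given.

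**Figure D2:**
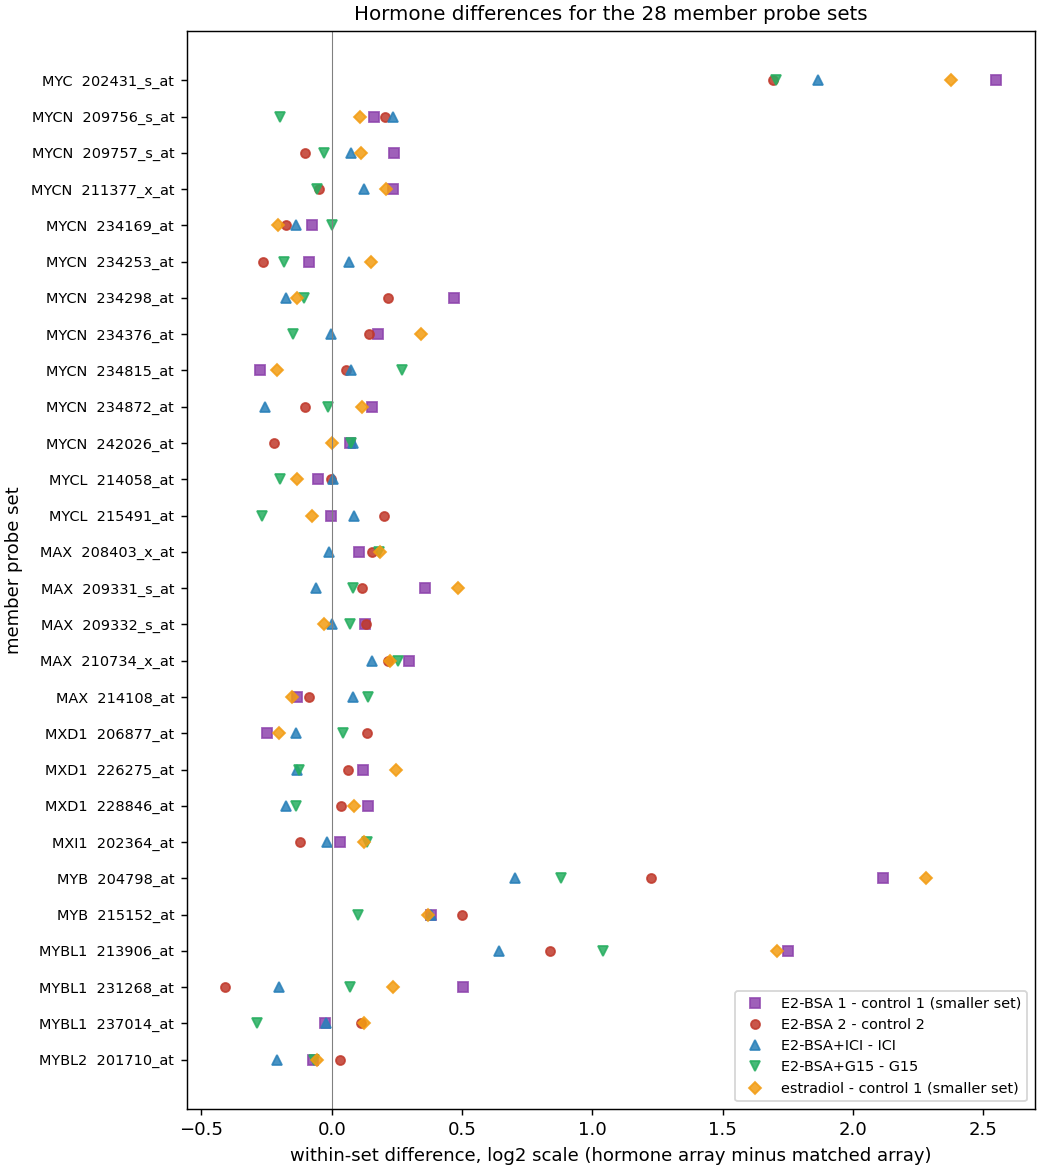
Differences on the log2 scale (horizontal axis) between a hormone array and its matched array of the same set for each of the 28 member probe sets (vertical axis), 1 point per pair of single arrays. The probe sets of MYC, of MYB (204798_at) and of MYBL1 (213906_at) stand apart at 0.64 to 2.55 in the 5 hormone pairs shown, and the other points lie between -0.41 and 0.50.

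Deposited values after quantile normalization gave other sizes for the genes at the ends of each array's range, with no change of sign in the 4 pairs of these 3 genes. MYC was then at 1.32 in the pair of the smaller set and 2.52 in that of the larger, so the order of the sets turned, and at 0.45 in the pair given ICI and 2.13 in the pair given G15. By its construction this setting gives every array the same set of values. On the ICI array MYC held the lowest value of all 54613 probe sets, and on E2-BSA with ICI the rank 3 from the lowest, so both were moved to the ends of the shared range (-2.08 and -1.63). MYB and MYBL1 were then at 1.30 and 0.94 in the pair of the smaller set and at 1.53 and 1.23 in that of the larger.

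The likeness of these 3 genes to each other and to other genes was measured over the 11 arrays after each set's mean was removed. Pearson's r was 0.87 between MYC and MYB, 0.90 between MYC and MYBL1 and 0.97 between MYB and MYBL1. The 3 genes were chosen for their hormone differences on these same arrays, each by its most variable probe set. High values between them follow from that choice, and nothing is read from them. The genes with the pattern most like MYC were ADM (r = 0.98), which encodes the vasodilator peptide adrenomedullin, KBTBD6 (0.98), GEMIN4 (0.97), a component of the SMN complex, CDK5R1 (0.96), an activator of CDK5, and STC2 (0.96), a stanniocalcin. For MYB the most alike were ASB13 (0.99), the carbonic anhydrase gene CA12 (0.99), the ubiquitin ligase gene SIAH2 (0.99), TRIM27 (0.99) and the chemokine gene CXCL12 (0.99). For MYBL1 they were KCTD6 (0.99), IL6ST (0.98), which encodes the gp130 receptor subunit, VEZF1 (0.98), FHL2 (0.98) and TRIM8 (0.98). These values describe 11 arrays that all genes share, and the highest of many genes on few arrays are bound to be high.

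RefSeq start-site windows of 300 bases (250 before and 50 after the start, build GRCh38.p14) were read for the members found in the table. No window was matched for MYC or MYBL1, so nothing is read here for these genes. MYB is shown because it was higher beside MYC and MYBL1 on the hormone arrays, and MXD1 because it is the member that passed a test outside the hormone comparisons. Capitals mark matches to GGTCA, the core of the estrogen response element, and to the SP1 box GGGCGG, on either strand.
MYB chr6:135181058-135181357, plus strand: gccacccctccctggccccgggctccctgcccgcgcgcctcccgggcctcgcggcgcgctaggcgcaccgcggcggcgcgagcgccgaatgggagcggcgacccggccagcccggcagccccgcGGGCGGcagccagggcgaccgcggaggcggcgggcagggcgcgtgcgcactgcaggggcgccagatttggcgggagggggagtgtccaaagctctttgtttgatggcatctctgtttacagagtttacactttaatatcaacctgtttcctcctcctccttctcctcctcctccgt
MXD1 chr2:69914859-69915158, plus strand: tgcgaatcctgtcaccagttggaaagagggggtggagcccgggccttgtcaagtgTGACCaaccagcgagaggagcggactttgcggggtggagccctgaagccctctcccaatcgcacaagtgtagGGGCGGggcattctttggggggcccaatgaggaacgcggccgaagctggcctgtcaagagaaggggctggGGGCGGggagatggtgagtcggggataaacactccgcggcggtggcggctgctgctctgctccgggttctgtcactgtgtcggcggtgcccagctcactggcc
The MYB window held 1 SP1 box and 0 matches to GGTCA, and the MXD1 window held 2 SP1 boxes and 1 match to GGTCA, which lies on the other strand. None of the matches overlapped. Of 35116 windows of this length in the table, 37.4% held GGTCA and 45% the SP1 box. The full element, GGTCA followed after 3 bases by TGACC, was in 0.057% of all windows and in 0 of the windows of MYB, MXD1, MYCN, MYCL, MAX, MXI1 and MYBL2. The E-box CACGTG, which MYC and MAX bind, was in 7.26% of all windows and among these members once, in MYBL2. A match is only a description of the letters.

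ICI alone was compared with untreated control to ask what the antagonist did without added hormone. Among all 54613 probe sets, MYC had the lowest difference of ICI minus control 2, at -1.87 on the log2 scale, a value 3.66-fold below the control. It also had the lowest difference of E2-BSA with ICI minus E2-BSA 2, at -1.70, or 3.24-fold below. These pairs share no array. MYC was selected for high values on E2-BSA arrays, which by itself favours a low value in the pair with E2-BSA 2. The same holds for the average over both backgrounds given below. For ICI minus control 2, 1 of the 28 member probe sets lay lower by 1 or more, beside 0.0183% of all probe sets, and for E2-BSA with ICI minus E2-BSA 2 again MYC alone, beside 0.0165%.

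In the blocked fit MYC was at -1.66 ± 0.23 for ICI against control (SE; 95% interval -2.15 to -1.17; unadjusted p = 7.39e-06, limma adjusted p = 0.196), so it did not pass. limma called 0 of the 28 members and 0% of all probe sets, and the unadjusted p was under 0.05 for 2 members and for 5.95% of all probe sets. The second member was 234298_at of MYCN, at 0.39 ± 0.16 (limma adjusted p = 0.796). Averaged over both backgrounds, with and without E2-BSA, the ICI difference of MYC was -1.79 ± 0.20 (limma adjusted p = 1.0), a comparison added after the data were seen. Without control 1 or without E2-BSA 1 the average kept its value and had adjusted p = 0.0699, and over all alternatives the adjusted p ran from 0.0699 to 1.0. Without control 2, the only untreated array of the set that holds ICI, the blocked difference of ICI against control was -1.02 with no test possible, and after quantile normalization it was -0.99 (adjusted p = 0.395).

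The other members did not share that size. ICI minus control 2 was -0.15 for MYB and -0.28 for MYBL1. E2-BSA with ICI minus E2-BSA 2 was -0.67 for MYB and -0.48 for MYBL1, at ranks 83 and 446 from the lowest. Both genes were selected in the same way as MYC, so these ranks carry the same limit. Averaged over both backgrounds the ICI difference was -0.41 ± 0.29 for MYB and -0.38 ± 0.23 for MYBL1 (both limma adjusted p = 1.0). MYB turned to 0.29 in the fit without the block, since the array sets differ in MYB.

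The E2-BSA response with ICI was also set against the response without it. This subtracts the E2-BSA minus control difference for which MYC, MYB and MYBL1 were selected, which by itself favours a smaller response with the antagonist, so it is given as a description with no test. For MYC the response with ICI minus that without was -0.25 ± 0.29 (SE) in the blocked fit. It was 0.17 when the response without ICI came from the larger set and -0.68 when it came from the smaller set, and -1.47 after quantile normalization. For MYB it was -0.97 ± 0.30 in the blocked fit and -0.52 within the larger set, and for MYBL1 it was -0.65 ± 0.30 and -0.20.

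The array with both agents thus placed the 3 genes differently against the untreated control. MYC on E2-BSA with ICI was at -0.01 relative to control 2. MYB was at 0.56 and MYBL1 at 0.36, at ranks 262 and 1943 from the highest. On E2-BSA with G15 the differences from control 2 were 1.40 for MYC, 1.06 for MYB and 0.77 for MYBL1.

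G15, the GPER1 antagonist, was compared in the same way. As for ICI, the choice of these genes favours low values in the pair with E2-BSA 2. G15 minus control 2 was -0.31 for MYC, 0.18 for MYB and -0.28 for MYBL1, and E2-BSA with G15 minus E2-BSA 2 was -0.30, -0.17 and -0.07. For MYC both were closer to 0 than the corresponding ICI differences, whereas for MYBL1 the values of G15 alone and ICI alone (-0.28 each) were alike. In the blocked fit of G15 against control the values were -0.10 (95% interval -0.58 to 0.39) for MYC, 0.40 (-0.10 to 0.90) for MYB and -0.05 (-0.55 to 0.46) for MYBL1. limma called 0 of 28 and 0% of all probe sets. An unadjusted p under 0.05 was found for 1 member (MXD1 226275_at, 0.40 ± 0.16, limma adjusted p = 0.973) and for 4.84% of all probe sets. The E2-BSA response with G15 minus that without, a description for the reason given for ICI, was -0.42 ± 0.29 (SE) for MYC, -0.79 ± 0.30 for MYB and -0.25 ± 0.30 for MYBL1 in the blocked fit. Within the larger set it was 0.01 for MYC, -0.35 for MYB and 0.20 for MYBL1, and after quantile normalization it was positive for MYC and MYBL1 (0.21 and 0.26), so no direction is read for these genes.

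**Figure D3:**
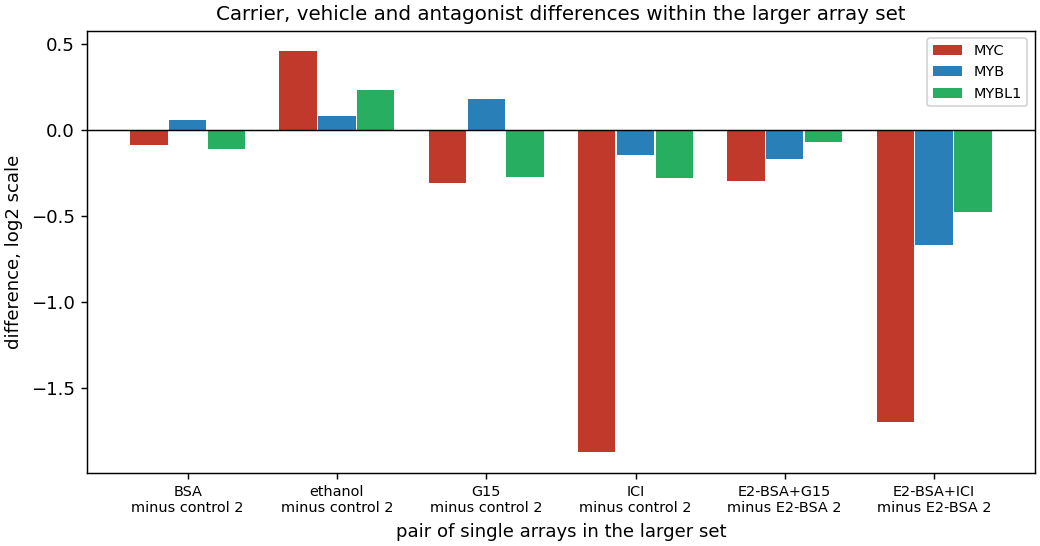
Differences on the log2 scale (vertical axis, bars from 0) of MYC, MYB and MYBL1 between pairs of single arrays of the larger set (horizontal axis), with no error bar because each pair is 1 array against 1. MYC reaches -1.87 for ICI minus control 2 and -1.70 for E2-BSA with ICI minus E2-BSA 2, while every bar for BSA, ethanol and G15 lies between -0.31 and 0.46.

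The 3 genes lay near the control on the array of the carrier BSA. Differences of E2-BSA from control and from BSA both entered their choice. The likeness of BSA and control in these genes is therefore not independent of that choice. BSA minus control 2 was -0.09 for MYC, 0.06 for MYB and -0.11 for MYBL1, and MYC turned to 0.31 after quantile normalization, so no direction is read from these values. In the blocked fit BSA against control was 0.13 (95% interval -0.36 to 0.62) for MYC, 0.28 (-0.22 to 0.78) for MYB and 0.11 (-0.39 to 0.62) for MYBL1 (each limma adjusted p = 1.0). limma called 0 of the 28 members, beside 0.0494% of all probe sets, all of them lower. An unadjusted p under 0.05 was found for 0 members and for 4.95% of all probe sets.

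Ethanol, the vehicle of estradiol, was compared with untreated control. MXD1, whose product opposes MYC, rose in probe set 226275_at by 0.86 ± 0.16 (SE; limma adjusted p = 0.0474), a 1.81-fold change, 1 of 28 member probe sets beside 0.227% of all probe sets called higher. Its values in the larger set were 0.58 on ethanol, -0.26 on control 2, 0.06 on BSA, -0.16 on ICI, 0.12 on G15, -0.20 on E2-BSA 2, -0.29 on E2-BSA with ICI and 0.00 on E2-BSA with G15, and in the smaller set it was -0.01 on control 1, 0.11 on E2-BSA 1 and 0.23 on estradiol. The ethanol array was thus the highest of the 11.

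A second MXD1 probe set, 228846_at, followed the first with r = 0.93 over the 11 arrays. It was 0.70 on ethanol and between -0.22 and 0.12 on the other 10 arrays, with a difference of 0.77 ± 0.16 (limma adjusted p = 0.0921) that did not pass. The third, 206877_at, was at 0.00 on ethanol and highest on control 1 (0.27), and did not follow either of them (r = -0.15 and -0.12). The call of 226275_at ended without the block (0.72, adjusted p = 1.0) and after quantile normalization (1.10, adjusted p = 0.0949).

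**Figure D4:**
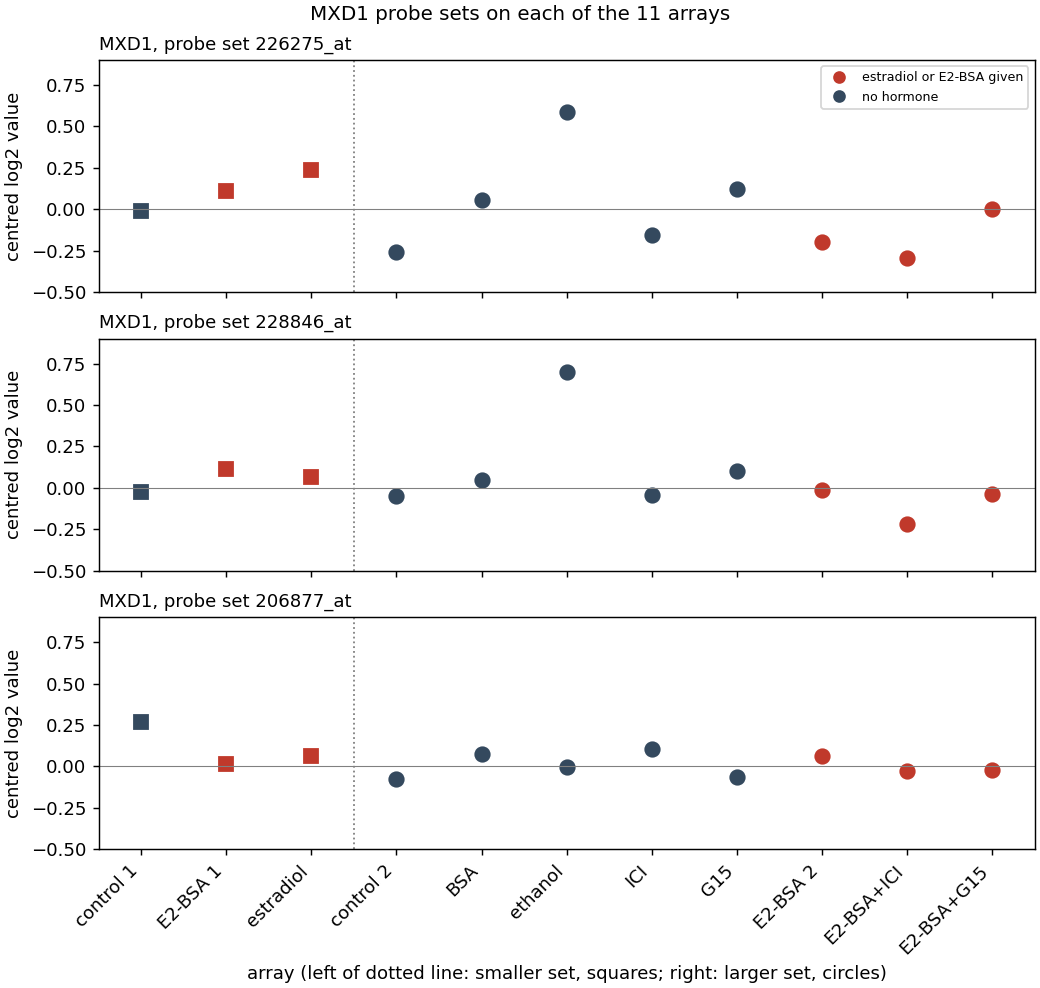
Centred log2 values of the 3 MXD1 probe sets (vertical axes) on the 11 arrays (horizontal axis), 1 point per array, with squares for the smaller and circles for the larger set. In 226275_at and 228846_at the ethanol array (0.58 and 0.70) lies above all others, and in 206877_at it lies at 0.00.

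Other genes of the same fixed lists moved on the ethanol array, and these were named after their values were seen. Of the MYC-repressed targets GADD45A, a growth arrest and DNA damage gene, rose by 1.82 ± 0.16 (limma adjusted p = 0.000127) and CDKN1A, the p21 inhibitor of cyclin-dependent kinases, rose by 1.05 ± 0.16 (adjusted p = 0.0133). Of the mitotic targets of MYBL2 and FOXM1, the mitotic kinase gene PLK1 fell by 1.19, TOP2A, a DNA topoisomerase gene, by 1.38 in 1 probe set, KIF20A, a kinesin gene, by 0.999 and AURKA, another mitotic kinase gene, by 0.87 (limma adjusted p from 0.00259 to 0.043). That list had 4 of 32 probe sets lower, beside 0.0604% of all, and 0 higher, and its median was -0.51 against 0.00 for all probe sets. In it 23 probe sets had an unadjusted p under 0.05, beside 7.16% of all. The MYC-repressed list had 2 of 12 higher, beside 0.227% of all. Among these 6 genes, only GADD45A still passed after quantile normalization, and without the block 0 did. MYC itself was at 0.67 ± 0.23 for ethanol against control (unadjusted p = 0.0112, adjusted p = 0.457) and at 0.46 in ethanol minus control 2. MYBL2 was at -0.01 in that pair. The MYC-induced list did not fall for ethanol against control, with a median of 0.04 and 29 of 51 positive. The MuvB list had a median of 0.13 with 15 of 26 positive. For the other MYC network partners, the MYC cofactors and turnover factors, and the MYB partners and targets, the medians were -0.05, -0.05 and -0.02. Each of these values rests on the single ethanol array.

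The remaining members showed no E2-BSA difference of the size of MYC. MAX, the obligate partner, had 5 probe sets with differences from -0.13 to 0.36 over the 4 pairs. Of these, 210734_x_at was positive in all 4 (0.15 to 0.30) and 209332_s_at likewise (0.00 to 0.13), while 208403_x_at ranged from -0.01 to 0.18. Names ending in x_at mark probe sets that can also bind other transcripts. In all, 6 of 28 member probe sets were higher on the E2-BSA array in every pair (MYC, both of MYB, 213906_at of MYBL1 and these 2 of MAX), beside 8.22% of all probe sets, and 1, of MYCN, was lower in every pair, beside 8.42%. These shares include the genes for which the group was chosen, and nothing is read from them.

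MYCN, the neuronal member of the MYC family, had 10 probe sets with differences between -0.28 and 0.47 in the 4 pairs. Their correlations with each other over the 11 arrays ran from -0.47 to 0.77, so they did not report 1 common pattern. MYCL had differences from -0.27 to 0.20 in its 2 probe sets, whose r was 0.12. MXI1 ranged from -0.12 to 0.14 over the pairs, and the 3 probe sets of MXD1 from -0.25 to 0.14. None of these was a call in the E2-BSA comparison.

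MYBL2 was flat within each set and different between them. Its value was -0.73 on control 1, -0.80 on E2-BSA 1 and -0.78 on estradiol, and on the 8 arrays of the larger set it ran from -0.02 on BSA to 0.23 on ICI. Its E2-BSA differences were -0.07, 0.03, -0.21 and -0.07. The difference between sets was -0.78 without hormone (control 1 minus control 2) and -0.88 with E2-BSA.

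Probe sets of the same gene did not all agree for the responding genes either. The second MYB probe set, 215152_at, followed the first with r = 0.86, with smaller E2-BSA differences of 0.38, 0.50, 0.38 and 0.10 in the order of pairs above. MYBL1 had 231268_at at 0.50, -0.41, -0.20 and 0.07 and 237014_at at -0.03, 0.11, -0.02 and -0.29, and their r with 213906_at was 0.20 and -0.01. The MYBL1 result therefore rests on 1 of 3 probe sets, and MYC on the single probe set it has.

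Genes around the members were taken from lists written from textbook knowledge. The lists were chosen with earlier results of these data known, so their p-values are not independent of those results. Of 51 probe sets for 18 measured MYC-induced targets, 2 were called higher and 0 lower for E2-BSA against control, beside 0.657% of all probe sets called in either direction. They were CDC25A, a phosphatase that activates cyclin-dependent kinases, which rose by 0.65 ± 0.13 (limma adjusted p = 0.0396), and POLR1B, a subunit of RNA polymerase I, which rose by 0.70 ± 0.13 (adjusted p = 0.028). The list's median was 0.08 with 38 of 51 positive, against a median of 0.00 for all probe sets, and 11 of 51 had an unadjusted p under 0.05, beside 9.68% of all. In its 4 pairs POLR1B was at 0.85, 0.54, 0.68 and 0.26, and CDC25A 204695_at at 0.81, 0.50, 0.07 and 0.12. A second CDC25A probe set, 1555772_a_at, was called only in the average over 3 backgrounds (0.52 ± 0.07, limma adjusted p = 0.0495, beside 0.189% of all probe sets called higher). It was at 0.38, 0.61, 0.46 and 0.61, with larger values than the first in the pairs given an antagonist. For ICI against control the same list had a median of -0.03, with 0 called in limma and 4 of 51 at an unadjusted p under 0.05, beside the 5.95% given above.

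Of 12 probe sets for 8 MYC-repressed targets, 1 was called higher, the cyclin D1 gene CCND1, at 0.80 ± 0.13 (limma adjusted p = 0.0158), and 0 lower. This list's median was 0.10 with 7 of 12 positive, and 3 of 12 had an unadjusted p under 0.05. In this comparison it thus did not move opposite to the MYC-induced list. For E2-BSA against BSA, with ICI and with G15, its medians were -0.04, -0.09 and -0.09. Those of the MYC-induced list were 0.11, 0.04 and 0.05. Over 3 backgrounds the medians were -0.01 and 0.09, and for estradiol against control they were 0.04 and 0.07. The sign of the MYC-repressed list thus depended on the comparison, and whether the lists moved apart was not tested. CCND1 encodes a partner of CDK4 and CDK6 and is also a known estrogen-induced gene. Of the 23 probe sets for 8 other partners in the MYC network, 32 for 12 MYC cofactors and turnover factors, 45 for 16 MYB partners and targets, 26 for 10 genes of the MuvB complex and 32 for 12 mitotic targets of MYBL2 and FOXM1, limma called 0 in either direction for E2-BSA against control, with 2, 3, 5, 2 and 4 at an unadjusted p under 0.05, which 9.68% of all probe sets had. Their medians were 0.02, 0.02, -0.05, -0.02 and -0.10. The calls of CDC25A, POLR1B and CCND1 ended without the block (each adjusted p = 1.0) and after quantile normalization (adjusted p = 0.531, 0.504 and 0.61), with values of 0.61, 0.67 and 0.79 in the latter.

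Marker lists of several cell types were compared between the groups. Since values are centred per probe set, this cannot show whether a cell type is present. For E2-BSA against control limma called 0 of 23 fibroblast, 0 of 9 leukocyte and 0 of 9 endothelial probe sets, and 0 in each list had an unadjusted p under 0.05. Of 25 probe sets for luminal epithelial markers 1 was called, the progesterone receptor gene PGR, at 0.90 ± 0.15 (limma adjusted p = 0.0177), whose call also ended without the block and after quantile normalization. In this list 7 of 25 had an unadjusted p under 0.05, beside 9.68% of all probe sets. Median values of the marker lists per array lay between -0.15 and 0.10 over all 11 arrays, where the centring by itself holds values near 0.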

How the data were processed

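Each of 11 samples of total RNA from T47D cells was measured on 1 Affymetrix HG-U133 Plus 2 array. The values deposited by the authors were read as log2. Their summarisation, normalization and log base are not given in the sources used here, and the scale was judged from the values: every array's median lay within 0.0105 of 0, and in 57.0% of probe sets some positive value had a negative counterpart of equal size (tolerance 1e-05), as centring on a median leaves them. Direction was taken as deposited. No filter on low values was possible, and signal over background is unknown.

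Of 54675 probe sets, 62 array controls were left out. By the platform annotation 41091 of the rest had 1 gene symbol, 1801 several and 11721 none, and 41037 symbols were updated through RefSeq gene identifiers. No probe set with several symbols listed a member.

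limma 3.58.1 (R 4.3.3; lmFit, eBayes) was fitted to all arrays with group and array set as terms, with 1 residual degree of freedom and 11.3 prior degrees of freedom. The 1 residual degree of freedom is the disagreement of E2-BSA minus control between the array sets. A shift shared by both groups is taken up by the set term. The larger prior means that most of the variance estimate was borrowed from all probe sets. Groups of 1 array took this same spread. E2-BSA over 3 backgrounds, and ICI or G15 over both backgrounds, came from 8 arrays with E2-BSA, antagonist and set as terms (3 residual degrees of freedom). Calls were made at a Benjamini-Hochberg adjusted p under 0.05, with the adjustment over every probe set tested. Errors are standard errors of that fit and intervals are 95% intervals. Scripts were tested on simulated data. Members and gene lists were chosen with earlier results of these data known. Alternatives were no block, quantile normalization, robust eBayes, probe sets with 1 symbol, and fewer arrays. Named were all members, from each list up to 4 genes called for E2-BSA against control, and the 5 genes most alike to MYC, MYB and MYBL1 by Pearson's r. List genes called for ethanol against control were also named, after their values were seen.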

Additional observations from a re-analysis of the deposited data

How the results depend on the processing

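Counts of called probe sets depended on the array set being in the model. Without the replicate block, 0 probe sets passed in any comparison, against 359 for E2-BSA, 91 for estradiol, 157 for ethanol and 27 for BSA against control, 83 for E2-BSA against BSA, 61 for E2-BSA with G15 against G15, 6 for the E2-BSA response with ICI minus that without, and 133 for E2-BSA over 3 backgrounds with it. After quantile normalization these counts were 0 as well, except 12 for ethanol and 1 for the average. With probe sets of 1 symbol alone, E2-BSA with G15 against G15 had 37 and the response with ICI minus that without 0. The average had 2 in the larger set alone and 0 to 95 when 1 array was left out, with 0 on leaving out control 2, E2-BSA 2, G15 or its combination with E2-BSA, and 2 without control 1 or E2-BSA 1. Leaving out a control or E2-BSA array left the other comparisons with no residual degree of freedom, so only values could be given. Robust eBayes kept all counts within 1.5 times.

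The replicate numbers of control and E2-BSA coincide with the array sets. Differences between replicates 1 and 2 correlated across probe sets between these groups (r = 0.857), and the labels state no pairing. No member value that passed changed its sign under any alternative. Depth has no counterpart here, and the number of arrays and the unknown signal over background limit the precision.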
